A study of Mus musculus with 26 samples.

Results

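The genes described are 9 enzymes of serine and one-carbon metabolism, listed by name: Phgdh, Psat1, Psph, Shmt1, Shmt2, Mthfd1, Mthfd1l, Mthfd2 and Aldh1l2. They are 9 of the 35944 genes quantified. RNA was sequenced from TCRTg101, CD8+ T cells whose transgenic receptor came from 1 T cell clone specific for an undefined antigen of the mouse leukemia line C1498. Per the study, donor mice carried the transgenic receptor on a Rag2-/- background, and the cells were labelled with the division dye CellTrace Violet, transferred into mice and recovered by cell sorting. All sample labels give strain C57BL/6, genotype wild type and an age of 6 weeks. The control group held 3 spleen libraries, made from naive cells at day 0 (replicates 1 and 2) and from cells of untreated mice at day 18 (replicate 3). Liver cells of leukemia-bearing mice were taken early (day 7, 2 libraries), mid (replicates 1 and 2 at day 13, replicate 3 at day 14) and late (replicate 1 at day 18, replicate 2 at day 16). Spleen cells of leukemia-bearing mice were taken early (day 7, 2 libraries) and mid (day 14, 1 library). A single undivided spleen library, labelled CTVhi because its cells had kept the dye, came from leukemia-bearing mice at day 18. Library titles carried a TG or XC prefix, and control replicate 1, liver mid replicate 1 and liver late replicate 1 were the TG libraries among these 14. No control was taken from liver, so organ and leukemia cannot be told apart in a comparison of liver with control. The labels do not say whether libraries of a group came from separate animals, so the p-values measure the spread between these libraries, which may be technical.

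Serine can be made from a glycolytic intermediate in a pathway of 3 steps, run in turn by Phgdh, Psat1 and Psph. Serine hydroxymethyltransferase, cytosolic Shmt1 or mitochondrial Shmt2, then moves a carbon from serine to tetrahydrofolate and leaves glycine. Folate-bound carbon units pass through Mthfd2 and Mthfd1l in the mitochondrion, leave as formate, and are taken up again by Mthfd1 in the cytosol, where they feed purine and thymidylate synthesis. Aldh1l2 is the mitochondrial enzyme that oxidises formyl-tetrahydrofolate to carbon dioxide. Dividing T cells are known to draw on serine and on these folate reactions to make nucleotides.

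Summed over the runs of a library, the 14 low-input libraries held between 22918996 and 71358287 estimated counts. The 6 T cell markers, Cd8a and Cd3e among them, summed to 3515 to 7481 CPM (counts scaled to a common library total) in every library. The 3 CD4 T cell markers summed to 2.56 to 6.32 CPM in controls and 7.59 to 11.2 CPM in liver mid and late libraries; Cd4 itself reached at most 5.34 CPM, in control replicate 1, and with mid and late liver together against control Cd40lg and Foxp3 rose, by log2 fold changes of 2.87 and 1.56. The part of these markers in the results was not tested. Summed erythroid markers reached 4690 and 19190 CPM in the day 0 controls and lay at 121 CPM in the day 18 control, and 8 hepatocyte markers summed to 0.0781 to 0.292 CPM in controls and 1.90 to 252 CPM in the liver mid and late libraries. In such bulk samples fewer cells of a type and less RNA per cell cannot be told apart. Levels below are CPM scaled with edgeR's trimmed mean of M values (TMM) unless another scale is named.

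The upstream sequence of each start site was read from RefSeq (GRCm38.p6), which held 9 start sites for 8 of the 9 genes and 2 of them for Psat1. The 100 bases before the start are printed for the 4 genes with the largest rises. Capitals mark the letters CCAAT, or ATTGG where the box lies on the other strand. 
Phgdh, chr3:98339970-98340069, minus strand: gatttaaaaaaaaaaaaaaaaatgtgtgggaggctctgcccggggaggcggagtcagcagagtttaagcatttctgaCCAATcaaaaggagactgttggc
Psat1, distal start, chr19:15925060-15925159, minus strand: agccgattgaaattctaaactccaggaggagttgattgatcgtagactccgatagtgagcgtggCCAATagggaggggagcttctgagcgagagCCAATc
Psat1, proximal start, chr19:15924623-15924722, minus strand: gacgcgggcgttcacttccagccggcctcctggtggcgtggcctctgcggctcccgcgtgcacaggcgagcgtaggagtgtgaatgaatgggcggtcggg
Shmt1, chr11:60811266-60811365, minus strand: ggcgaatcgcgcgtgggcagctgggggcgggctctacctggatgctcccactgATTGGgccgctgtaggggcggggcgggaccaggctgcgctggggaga
Mthfd2, chr6:83317605-83317704, minus strand: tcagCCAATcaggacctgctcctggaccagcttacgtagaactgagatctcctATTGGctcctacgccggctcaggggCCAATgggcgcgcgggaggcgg
These letters stood in 6 of the 9 such windows of these genes, those of Phgdh, Psat1 (distal start only), Psph, Shmt1, Mthfd1 and Mthfd2. The windows of Shmt2 and Mthfd1l, which also rose, did not hold them. They stood in 18.9% of the 32851 RefSeq windows of the same length. The motif was picked after the sequences were read, so the share is a description. In the 250 bases before the start, TGATGNAA (either strand, N any base), which CHOP and ATF4 dimers bind, was in none of the 8 genes and in 3.45% of windows. The E-box CACGTG was likewise in none of the 8 and in 6.02% of windows. The absence says only that these letters are not in these windows.

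The 3 enzymes of serine synthesis were higher in all 5 liver mid and late libraries than in all 3 controls. Phgdh, which takes the first step (chr3:98313170-98339990, minus strand), was at 175, 140 and 177 CPM in the controls. It stood at 985, 336 and 558 CPM in the liver mid libraries and at 1325 and 504 CPM in the late ones. The lowest of those 5 values lay above the highest control, and the 2 TG libraries were the highest. Against control its log2 fold change was 1.77 (SE 0.42) at mid and 2.13 (SE 0.47) at late time points, with edgeR adjusted p of 0.0239 and 0.0150.

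Psat1, the transaminase of the second step (chr19:15904678-15947337, minus strand), was at 23.5, 17.1 and 29.5 CPM in controls. Liver mid libraries held 328, 149 and 233 CPM and late ones 355 and 176 CPM. Its rise was the largest of the 3 enzymes, with log2 fold changes of 3.25 (SE 0.66) at mid and 3.29 (SE 0.71) at late, with edgeR adjusted p of 0.0220 and 0.0157. Psph, the phosphatase that releases free serine (chr5:129765558-129787449, minus strand), had a narrow control range, 42.5, 39.5 and 44.3 CPM. It reached 126, 69.3 and 98.3 CPM at mid and 175 and 99.2 CPM at late time points. Its log2 fold changes, 1.16 (SE 0.27) and 1.54 (SE 0.30), were smaller but passed the edgeR test at adjusted p of 0.0231 and 0.0120.

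The Psph count carries an uncertainty, since its main transcript shares 24.8% of its 31-base words with Cct6a on the opposite strand, and whether the reads kept their strand was not given in the sources used here. Counted over the 4 Psph transcripts that share no word with another gene, the level was 15.3, 11.5 and 12.2 CPM in controls. On the same transcripts it was 49.5, 18.9 and 26.5 CPM at mid and 61.7 and 29.2 CPM at late time points, again with no overlap. Phgdh has 22 processed pseudogenes that share words with it, and they took 0.166% to 1.01% of the joint count in 13 libraries and 7.15% in spleen early replicate 2.

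**Figure D1:**
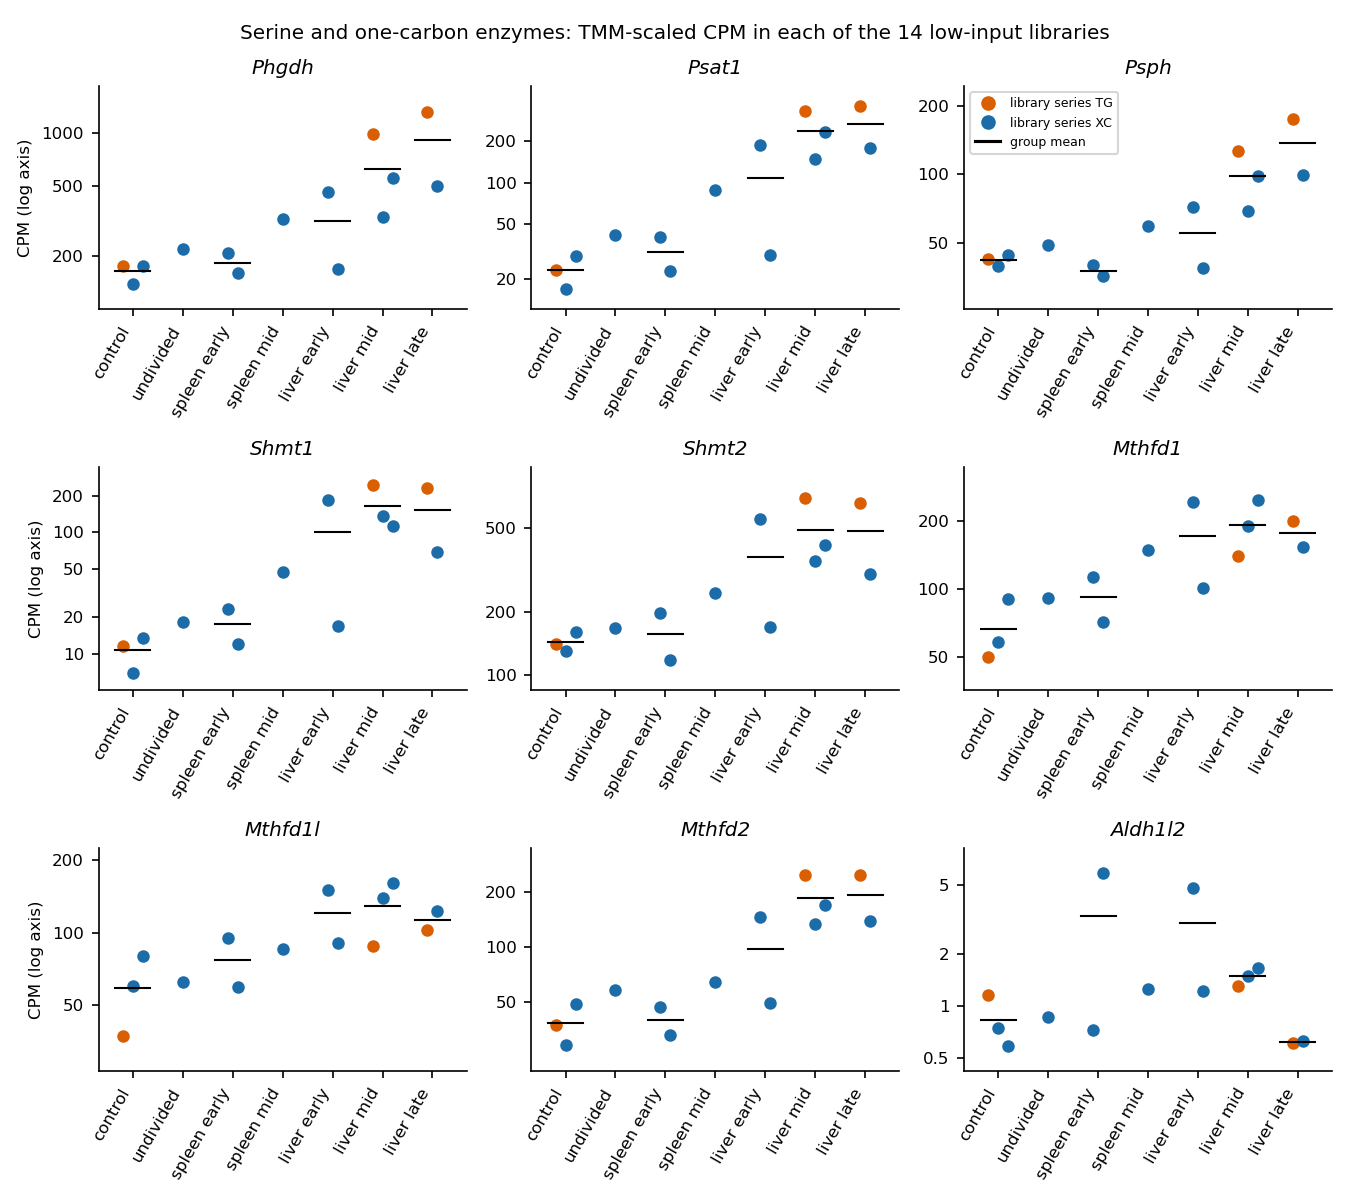
TMM-scaled CPM (log axis) of the 9 enzymes in each of the 14 low-input libraries, by group; points are libraries, coloured by title prefix (TG orange, XC blue), and lines are means of groups with more than 1 library. For 8 enzymes every liver mid and late point lies above every control point, and liver early replicate 1 lies above replicate 2. For Mthfd1l replicate 2 also lies within the range of the liver mid and late points. Aldh1l2 stays under 6 CPM throughout.

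Of the pair of serine hydroxymethyltransferases, the cytosolic one showed the larger fold change and the mitochondrial one the higher level. Shmt1 (chr11:60788104-60811718, minus strand) was at 11.7, 7.01 and 13.5 CPM in controls. It was at 247, 137 and 113 CPM in liver mid and at 234 and 69.2 CPM in liver late libraries. Its log2 fold changes of 3.82 (SE 0.84) and 3.42 (SE 0.89) were the largest among the 9 genes at both times, at edgeR adjusted p of 0.0231 and 0.0251.

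Shmt2 (chr10:127517123-127522444, minus strand) started at 140, 130 and 160 CPM in controls. It held 700, 348 and 418 CPM at mid and 663 and 303 CPM at late time points, log2 fold changes of 1.66 (SE 0.43) and 1.50 (SE 0.48). Both passed the edgeR test, at adjusted p of 0.0272 and 0.0393, and the groups did not overlap.

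Mthfd1, the cytosolic enzyme with 3 folate activities (chr12:76255298-76319803, plus strand), was at 50.0, 58.3 and 90.9 CPM in controls. Liver mid libraries held 141, 191 and 249 CPM and late libraries 201 and 155 CPM. The day 18 control was the highest control, as it was for Phgdh, Psat1, Psph, Shmt1, Shmt2, Mthfd1l and Mthfd2. The lowest liver value of Mthfd1 stood above it. The log2 fold changes were 1.52 (SE 0.37) and 1.51 (SE 0.41), at edgeR adjusted p of 0.0241 and 0.0245.

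In the mitochondrial folate pathway, 2 of the 3 enzymes rose. Mthfd2, the dehydrogenase and cyclohydrolase (chr6:83305691-83325908, minus strand), was at 37.2, 29.2 and 48.4 CPM in controls. It was at 249, 134 and 171 CPM at mid and 248 and 138 CPM at late time points. Its log2 fold changes of 2.19 (SE 0.42) and 2.16 (SE 0.46) had edgeR adjusted p of 0.0220 and 0.0145.

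Mthfd1l, which releases formate (chr10:3973118-4167081, plus strand), was at 37.2, 60.2 and 79.8 CPM in controls. Its liver values were 87.6, 140 and 160 CPM at mid and 102 and 122 CPM at late time points. This was the smallest rise that passed the edgeR test, with log2 fold changes of 1.12 (SE 0.24) and 1.08 (SE 0.27) and adjusted p of 0.0220 and 0.0182. The TG library was the lowest here in the control, mid and late groups. The separation of the groups depended on the scale: without TMM scaling, and in TPM, which also corrects for transcript length, the Mthfd1l ranges of controls and liver mid and late libraries overlapped, which for the other 7 enzymes that rose they did not.

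Aldh1l2 (chr10:83487450-83534140, minus strand) was near the lower limit of what these libraries measured. Controls held 1.15, 0.742 and 0.584 CPM, liver mid libraries 1.30, 1.49 and 1.64 CPM and liver late libraries 0.609 and 0.623 CPM. Its log2 fold changes of 0.83 (SE 0.54) at mid and -0.46 (SE 0.61) at late time points did not pass the edgeR test, at adjusted p of 0.245 and 0.558. The 2 highest libraries were spleen early replicate 2 at 5.85 CPM and liver early replicate 1 at 4.82 CPM, while their partners at day 7 held 0.727 and 1.22 CPM.

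The Aldh1l2 counts also differed in kind. In the controls 100%, 94.7% and 94.0% of them fell on transcripts annotated as noncoding, chiefly Aldh1l2-204, a processed transcript. The 2 coding transcripts held 0, 2.00 and 1.06 estimated counts in the controls and 0 in the undivided library. They held 25.7, 38.1 and 26.1 in liver mid, 6.15 and 10.5 in liver late and 113 and 2.19 in liver early libraries. In counts, all 5 liver mid and late libraries thus stood above the controls on coding transcripts alone, although control replicate 1 was among the deepest libraries. Such counts were too low for the gene to be tested when coding transcripts alone were counted, and Aldh1l2-201 shares 17.1% of its words with D10Wsu102e on the opposite strand.

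**Figure D2:**
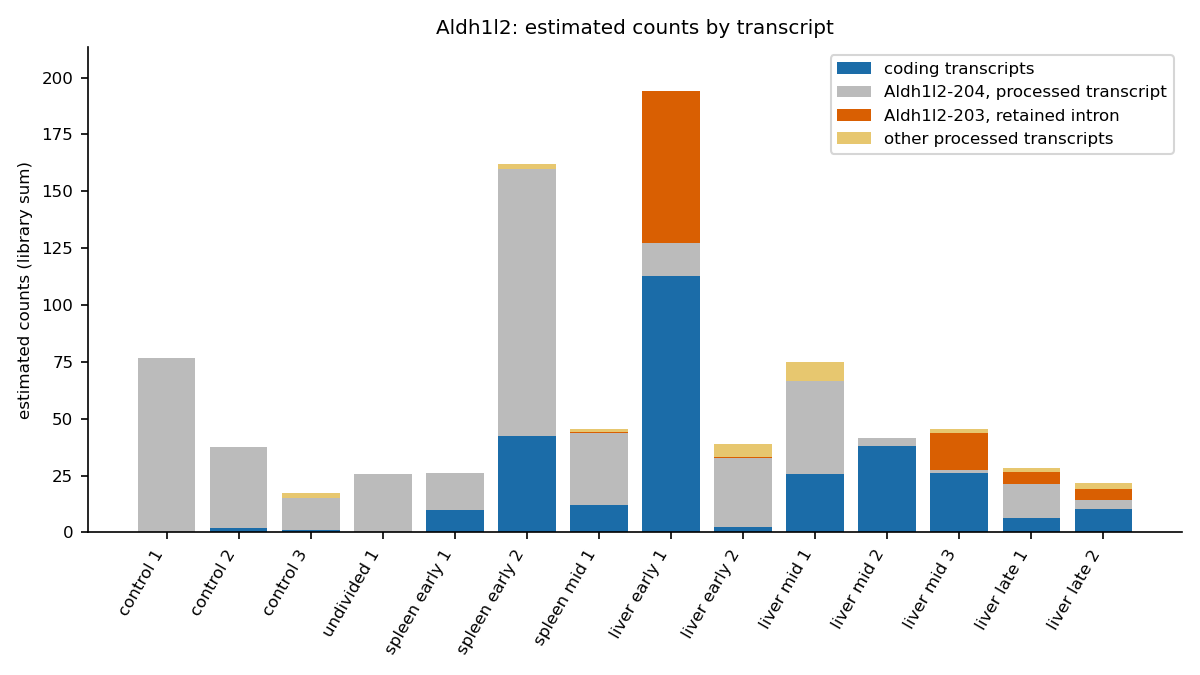
Estimated counts of Aldh1l2 in each low-input library (bars, summed over runs, not scaled for depth), split by transcript. Aldh1l2-204, a noncoding transcript, holds 80.4% to 100% of the counts in controls and all of them in the undivided library, and coding transcripts make up 112.7 of the 194.1 counts in liver early replicate 1.

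Against all genes, the share of these enzymes that rose was high. At mid time points 8 of 9 rose, where 17.3% of 14616 tested genes did. At late time points 8 of 9 rose, where 19.8% did. With mid and late libraries in 1 comparison 8 of 9 rose and none fell, where 23.5% of genes rose and 23.8% fell. The median log2 fold change of the 9 was 1.58 in that comparison and that of all tested genes -0.05. All 5 libraries stood above all 3 controls for 8 of the 9 and for 19.7% of the genes. The calls rested on few controls: without control replicate 1, the TG control, none of the 9 passed in any of these comparisons. Nor did most other genes, since 0.00705% of 14183 genes passed at mid, 1.05% at late and 0.0423% with both together. The smallest edgeR adjusted p of the 9 for mid and late together was then 0.0572 (Mthfd2). The mid count fell to 0 also without control replicate 2, liver mid replicate 1 or liver mid replicate 3, and the late count to 0 without either late library and to 4 without control replicate 2. Over all genes those settings called 0 or 1 gene, apart from 3399 of 14274 at late without control replicate 2. In every such setting the log2 fold changes of the 8 enzymes stayed above 0. That sign was largely set beforehand, since all 5 liver libraries stood above all 3 controls, so it adds no separate support.

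**Figure D3:**
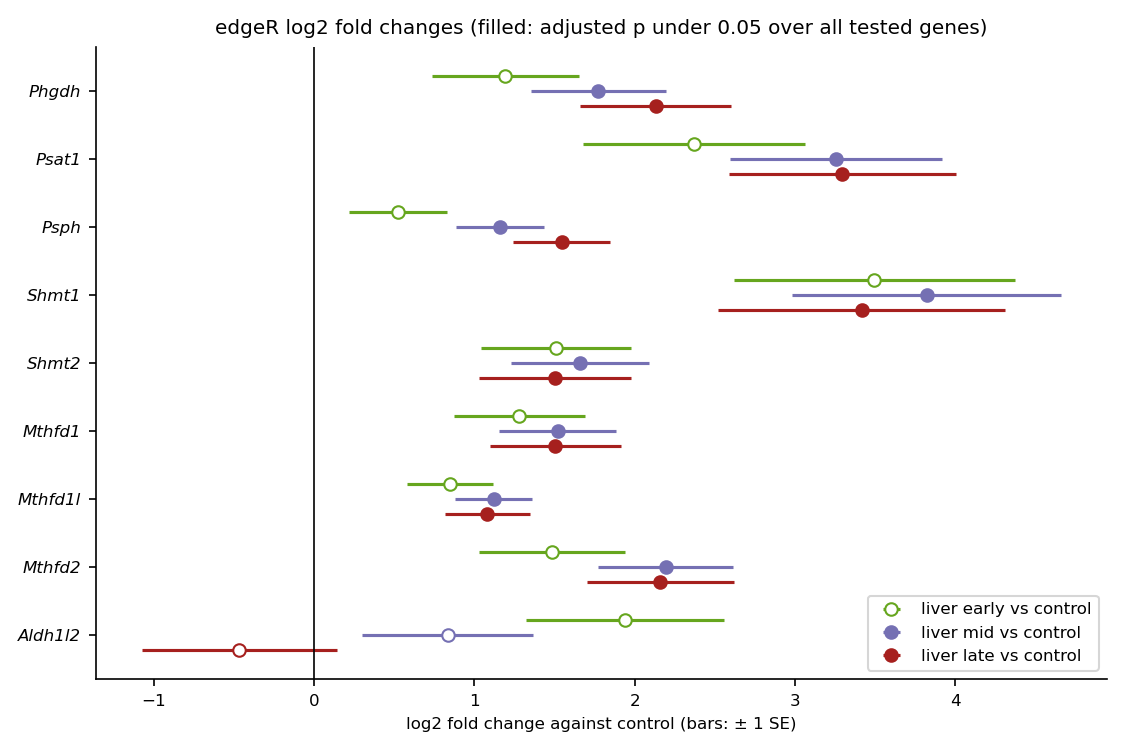
log2 fold changes of the 9 enzymes against control at the liver early, mid and late time points from edgeR, with bars of 1 SE; filled points passed adjusted p under 0.05 over all tested genes. For 8 enzymes the mid and late points are filled and close together, Shmt1 and Psat1 lie farthest right, and none of the early points is filled.

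Within each title prefix the direction was the same for the 8 enzymes that rose. The difference in mean log2 CPM between liver mid and late libraries and controls, given without a test, was 2.70 among TG libraries (1 control, 2 liver) and 1.53 among XC libraries (2 controls, 3 liver) for Phgdh. For Shmt1 the same differences were 4.36 and 3.39, and for Mthfd1l 1.35 and 1.01. All 8 differences were larger among the TG libraries, and Aldh1l2 differed in sign, at -0.35 among TG and 0.77 among XC libraries.

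No enzyme passed the test between late and mid liver libraries. For the 8 enzymes the late minus mid log2 difference ran from -0.41 to 0.38, with SE from 0.27 to 0.86. Aldh1l2 had the largest difference, -1.30 (SE 0.63), at an edgeR adjusted p of 0.910. Of all 14616 genes 0% were called (783 had an unadjusted p under 0.05).

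At day 7 the 2 liver libraries disagreed. Replicate 1 held 463 CPM of Phgdh, 186 of Psat1, 184 of Shmt1 and 147 of Mthfd2, within the range of the mid and late libraries. Replicate 2 held 170 CPM of Phgdh, 29.9 of Psat1, 16.8 of Shmt1 and 49.4 of Mthfd2, close to the controls. For Mthfd1 and Mthfd1l the replicates held 245 and 101 CPM, and 151 and 90.8 CPM. In TMM-scaled CPM replicate 2 lay above every control for Psat1, Shmt1, Shmt2, Mthfd1, Mthfd1l and Mthfd2. For Psat1 and Mthfd2 the margin was small (29.9 against 29.5 and 49.4 against 48.4 CPM) and was lost without TMM scaling. For Mthfd1l replicate 2 lay within the range of the mid and late libraries. The share of all genes with such positions was not computed. Relative to the mean of the controls, Shmt1 was 17.1 times as high in replicate 1 and 1.57 times in replicate 2. Proliferation markers, 10 genes that include Mki67 and Top2a, also differed between the libraries, with sums of 1296 CPM in replicate 1 and 272 in replicate 2. Controls held 283 to 354 CPM, above replicate 2. The part of these markers in the result was not tested.

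In the edgeR test of liver early against control 0% of 14616 genes passed, none of the 9 among them, although 1496 genes had an unadjusted p under 0.05 and 8 of the 9 enzymes were among those. Log2 fold changes ran from 0.52 (SE 0.30) for Psph to 3.49 (SE 0.88) for Shmt1, with a smallest adjusted p of 0.454. Without liver early replicate 2, a choice that leaves 1 library at that time, 8 of the 9 passed, where 13.2% of 14379 genes did, and the lone library is then assumed to vary like the other groups. Psph was the exception in that setting, at an adjusted p of 0.0610.

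In TMM-scaled CPM, spleen libraries of leukemia-bearing mice lay below every liver mid and late library for Phgdh, Psat1, Psph, Shmt1, Shmt2 and Mthfd2. They overlapped with them for Mthfd1 (150 CPM in spleen mid against 141 in liver mid replicate 1), Mthfd1l (94.8 in spleen early replicate 1 against 87.6 in liver mid replicate 1) and Aldh1l2. This separation depended on the scale. In TPM, spleen mid exceeded liver mid replicate 2 for Phgdh (198 against 180) and Psph (68.3 against 65.8). It also exceeded liver late replicate 2 for Shmt2 (144 against 138 TPM). Without TMM scaling Phgdh overlapped too, at 346 CPM in spleen mid against 329 in liver mid replicate 2. The share of all genes with such a separation was not computed. Spleen early libraries held 209 and 160 CPM of Phgdh, 40.2 and 22.9 of Psat1, 23.3 and 12.0 of Shmt1 and 47.0 and 33.0 of Mthfd2. None of the 9 passed the edgeR test against control, nor did any other gene (0% of 15465, 972 with an unadjusted p under 0.05). The spleen mid library lay between controls and liver for the 3 serine synthesis enzymes, at 327 CPM of Phgdh, 88.6 of Psat1 and 59.3 of Psph. Shmt1 stood there at 47.5 CPM, 4.42 times the control mean, and Mthfd2 at 64.4 CPM, 1.68 times. Proliferation markers summed to 1109 CPM in that library, and their part in these levels was not tested.

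No enzyme was called by edgeR in spleen mid against control or between liver and spleen at matched times when all libraries were used. In spleen mid against control 0.00647% of the 15465 genes passed, which is 1 gene and none of the 9, with log2 fold changes from 0.36 (SE 0.36) for Mthfd1l to 2.43 (SE 0.98) for Shmt1. Liver early against spleen early gave 0% of genes and none of the 9. The fold changes on the log2 scale ran there from -0.12 (SE 0.89) for Aldh1l2 to 2.50 (SE 0.96) for Shmt1, and 4 of the 9 had an unadjusted p under 0.05, as had 1395 genes in all. Without liver early replicate 2, a setting chosen after seeing the data, 4 of the 9 were called, with 971 of 15323 genes. Liver mid against spleen mid gave 0.00647% and none of the 9, with log2 fold changes from 0.18 (SE 1.07) for Aldh1l2 to 1.41 (SE 1.17) for Shmt1. The spleen groups held 2 libraries and 1 library.

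The undivided cells, taken from leukemia-bearing mice at day 18, had levels 1.04 to 1.80 times the control means. Their library held 222 CPM of Phgdh, 42.0 of Psat1, 48.7 of Psph, 18.2 of Shmt1 and 167 of Shmt2. It held 91.5 CPM of Mthfd1, 62.2 of Mthfd1l, 57.9 of Mthfd2 and 0.861 of Aldh1l2. Phgdh, Psat1, Psph, Shmt1, Shmt2, Mthfd1 and Mthfd2 lay above the highest control (Psat1 42.0 against 29.5 CPM, Mthfd1 91.5 against 90.9), and all 8 enzymes that rose in liver lay under the lowest liver mid or late value. These positions depended on the scale. Without TMM scaling, Mthfd1 and Shmt2 were not above the highest control (96.0 against 99.9 and 175.6 against 175.7 CPM). In TPM, Mthfd1 was below it (30.8 against 33.6). Mthfd1l stood in TPM above liver mid replicate 1 and liver late replicate 1 (20.0 against 16.7 and 15.3). The share of all genes with such positions was not computed.

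Against control the undivided log2 fold changes ran from -0.11 (SE 0.34) for Mthfd1l to 1.03 (SE 1.03) for Shmt1, and none passed the edgeR test, as was so for 0% of genes (183 with an unadjusted p under 0.05). Liver late against undivided gave log2 fold changes of 1.11 to 2.38 for the 8 enzymes, and none passed in edgeR, where 0% of genes did (3787 with an unadjusted p under 0.05). Psph and Mthfd1l had unadjusted p of 0.0239 and 0.0140, with adjusted p of 0.149 and 0.129. DESeq2 called 2 of the 9 in this comparison, where it called 12.8% of genes. The undivided group is 1 library, so in both tools its spread is assumed to be that of the other groups.

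Levels can be compared between genes only per transcript length, for which the deposited TPM values were averaged over runs. In controls Phgdh and Shmt2 were highest, at 84.4 ± 17.8 and 76.9 ± 21.0 TPM (SD, n = 3), and their spreads overlapped. Psph followed at 39.9 ± 6.97, then Mthfd1, Mthfd2 and Mthfd1l at 22.8 ± 9.67, 22.5 ± 6.97 and 17.2 ± 8.30, which did not differ beyond their spread. Psat1 at 11.1 ± 3.96, Shmt1 at 6.86 ± 3.15 and Aldh1l2 at 0.469 ± 0.172 TPM were lowest.

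In the liver mid and late libraries Phgdh stood at 282 ± 71.7 and Shmt2 at 180 ± 31.2 TPM (SD, n = 5). Psph at 84.4 ± 10.5, Psat1 at 81.8 ± 14.5, Mthfd2 at 80.8 ± 10.4 and Shmt1 at 74.4 ± 27.0 TPM lay within their spreads of each other. Mthfd1 at 51.8 ± 17.2 and Mthfd1l at 29.5 ± 13.0 TPM came next. Aldh1l2 was last at 0.359 ± 0.129 TPM. Psat1 and Shmt1, the lowest in controls after Aldh1l2, thus stood beside Psph and Mthfd2.

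**Figure D4:**
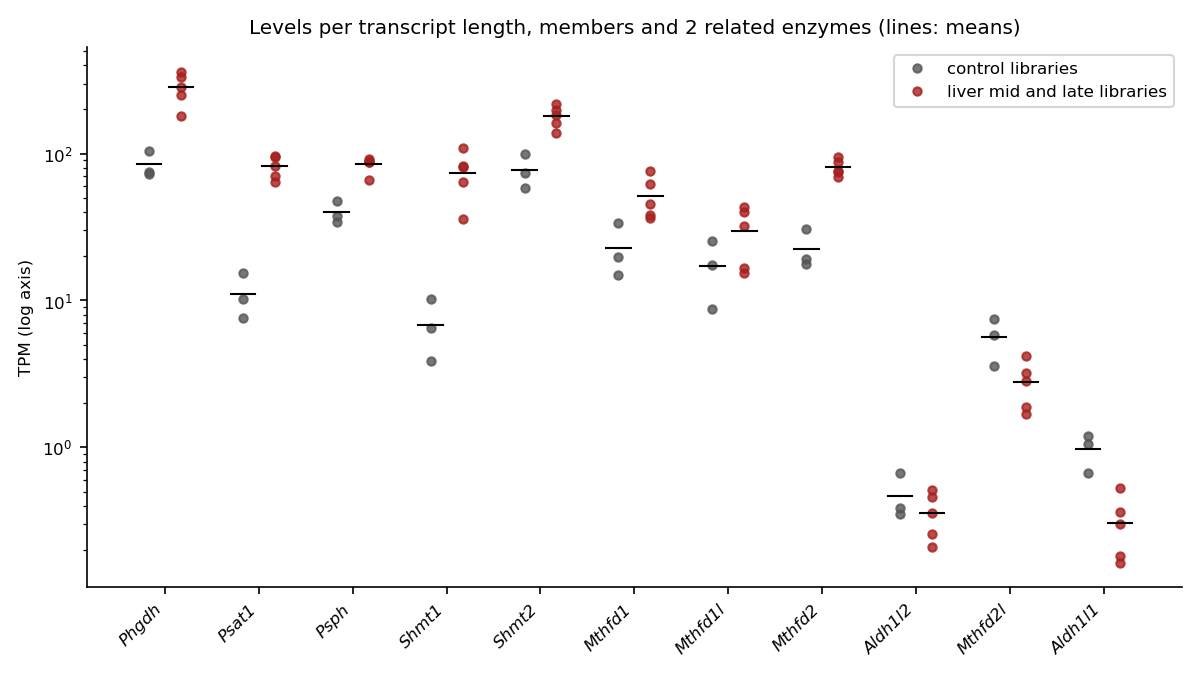
TPM (log axis) of the 9 enzymes and of Mthfd2l and Aldh1l1 in the 3 control (grey) and 5 liver mid and late libraries (red); points are libraries and lines are means. The red points of Psat1, Psph, Shmt1 and Mthfd2 lie at similar heights, Mthfd1l, Aldh1l2 and Mthfd2l overlap their controls, and the means of Mthfd2l and Aldh1l1 lie lower in liver.

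Ratios between related enzymes are given in TPM and without a test. Shmt2 was 8.88, 18.9 and 9.79 times Shmt1 in the controls and 1.99, 2.25 and 3.12 times in liver mid. It was 2.00 and 3.82 times in liver late, 2.56 and 9.97 times in liver early and 9.46 times in the undivided library. Thus the lowest control ratio exceeded the highest liver mid or late ratio, and the 2 liver early libraries again fell on different sides. Within the mitochondrion, Mthfd2 was 5.37, 2.38 and 5.25 times Mthfd2l, its paralogue, in controls, and 50.6, 17.9 and 27.3 times at mid and 45.2 and 24.4 times at late time points. The ratio of Mthfd1l to Mthfd1 was 0.585 to 0.883 in controls and 0.401 to 0.703 in these liver libraries, ranges that overlapped, as did those of Mthfd2 to Mthfd1, 0.896 to 1.28 and 1.15 to 2.60.

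Transcript makeup differed within some of the enzymes. The coding transcript Shmt1-211 took 3.38% to 4.35% of Shmt1 counts in controls and 11.5% to 18.7% in liver mid and late libraries. It was 1 of 11 Shmt1 transcripts, and the share of all transcripts with such a separation was not computed. Retained-intron transcripts made up 5.0% to 11.6% of Psat1 counts in controls and 0.396% to 4.53% in those liver libraries. For Shmt2 the shares were 6.08% to 8.80% and 1.44% to 3.41%, and for Shmt1 14.5% to 30.1% and 9.24% to 14.3%. Of the 8 enzymes with such transcripts, these 3, Mthfd1 and Mthfd2 had lower shares in all 5 liver libraries than in all 3 controls, Phgdh and Psph overlapped, and Aldh1l2 had none of these counts in controls. Shares lower in all 5 liver libraries than in all 3 controls were also seen in 26.4% of the 7611 tested genes with retained-intron transcripts, and no test was run. The coding transcript Psat1-205 held 59.5% to 71.7% of Psat1 counts in controls and 69.4% to 77.9% in these liver libraries, overlapping ranges.

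Over the 14 libraries the log2 CPM of the 8 enzymes other than Aldh1l2 moved alike, with Pearson r between 0.56 and 0.99 (median 0.92) over 28 pairs. The libraries share group differences, so these values describe likeness and are given without a p. The closest pair was Psat1 and Mthfd2, and the least alike was Psph and Mthfd1l. Aldh1l2 had r between -0.15 and 0.15 with the others.

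Among all tested genes, those most like Phgdh were Cdk4, Tmem126a and Stoml2 (r = 0.99, 0.99 and 0.99), and those most like Psat1 were Rpn1, Thop1 and Mthfd2 (0.99, 0.99 and 0.99). Psph was nearest to Got2, Fh1 and Cops3, Shmt1 to Thop1, Tnfsf14 and Ppa1, and Shmt2 to C1qbp, Adsl and Kars, each at 0.99. Mthfd1 was nearest to Gart, a purine synthesis enzyme, with Hacd3 and Dlat (0.97, 0.97 and 0.97). Mthfd1l was nearest to Ddb1, Aldh18a1 and Tbl2 (0.99, 0.98 and 0.98), and Mthfd2 to Pam16, Ydjc and Yars (0.99, 0.99 and 0.99). Aldh1l2 had no near match of that order, with Map1b, Lhfpl2 and Magi1 at 0.93, 0.87 and 0.84.

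The other genes of the pathway were taken from 6 lists with 65 genes, 60 of them tested. With liver mid and late libraries together against control, 28 rose and 6 fell (46.7% and 10.0%, against 23.5% and 23.8% of all genes), with a median log2 fold change of 0.56. These counts are from the fit of all 11 libraries, and without control replicate 1 only 6 of 14183 genes passed. Among 9 other folate enzymes tested, 4 rose and 3 fell. Tyms, thymidylate synthase, rose by a log2 fold change of 3.53 (SE 0.55). Aldh1l1, the cytosolic counterpart of Aldh1l2, decreased by 1.65 (SE 0.53) and Mthfd2l by 0.73 (SE 0.23), all 3 at edgeR adjusted p between 0.00626 and 0.0317.

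Of 10 genes of methionine metabolism and transsulfuration, 2 rose (20%, near the 23.5% of all genes) and 1 fell. Cth, which makes cysteine from cystathionine, rose by a log2 fold change of 5.37 (SE 1.48) and Ahcy by 1.35 (SE 0.25), while Cbs decreased by 1.04 (SE 0.32). Of 6 tested genes of glycine cleavage and serine breakdown, 3 rose, with Gldc at 2.89 (SE 0.46) and Gcsh at 1.91 (SE 0.44), and Amt, of the same complex, decreased by 1.62 (SE 0.47). The 10 transporter genes split into 5 that rose and 1 that fell, led by Slc1a4 at 3.11 (SE 0.88), the folate carrier Slc19a1 at 1.95 (SE 0.54) and Sfxn1, a mitochondrial serine carrier, at 1.41 (SE 0.28).

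In purine synthesis 7 of 10 genes rose and none fell, with Pfas at 1.75 (SE 0.34), Impdh2 at 1.59 (SE 0.35) and Ppat at 1.21 (SE 0.29). Of 15 tested ATF4 and stress targets 7 rose and none fell. Asns, asparagine synthetase, had 3.81, 1.21 and 1.75 CPM in controls, 77.1, 44.2 and 90.9 at mid and 140 and 121 at late time points, a log2 fold change of 5.44 (SE 0.94). Chac1 at 4.60 (SE 1.04), from only 0.0649 to 0.234 CPM in controls, and the amino acid carrier Slc7a5 at 2.14 (SE 0.43) followed. Atf4 itself, whose protein is controlled largely at translation, had a log2 fold change of 0.10 (SE 0.17) at an edgeR adjusted p of 0.643.

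**Figure D5:**
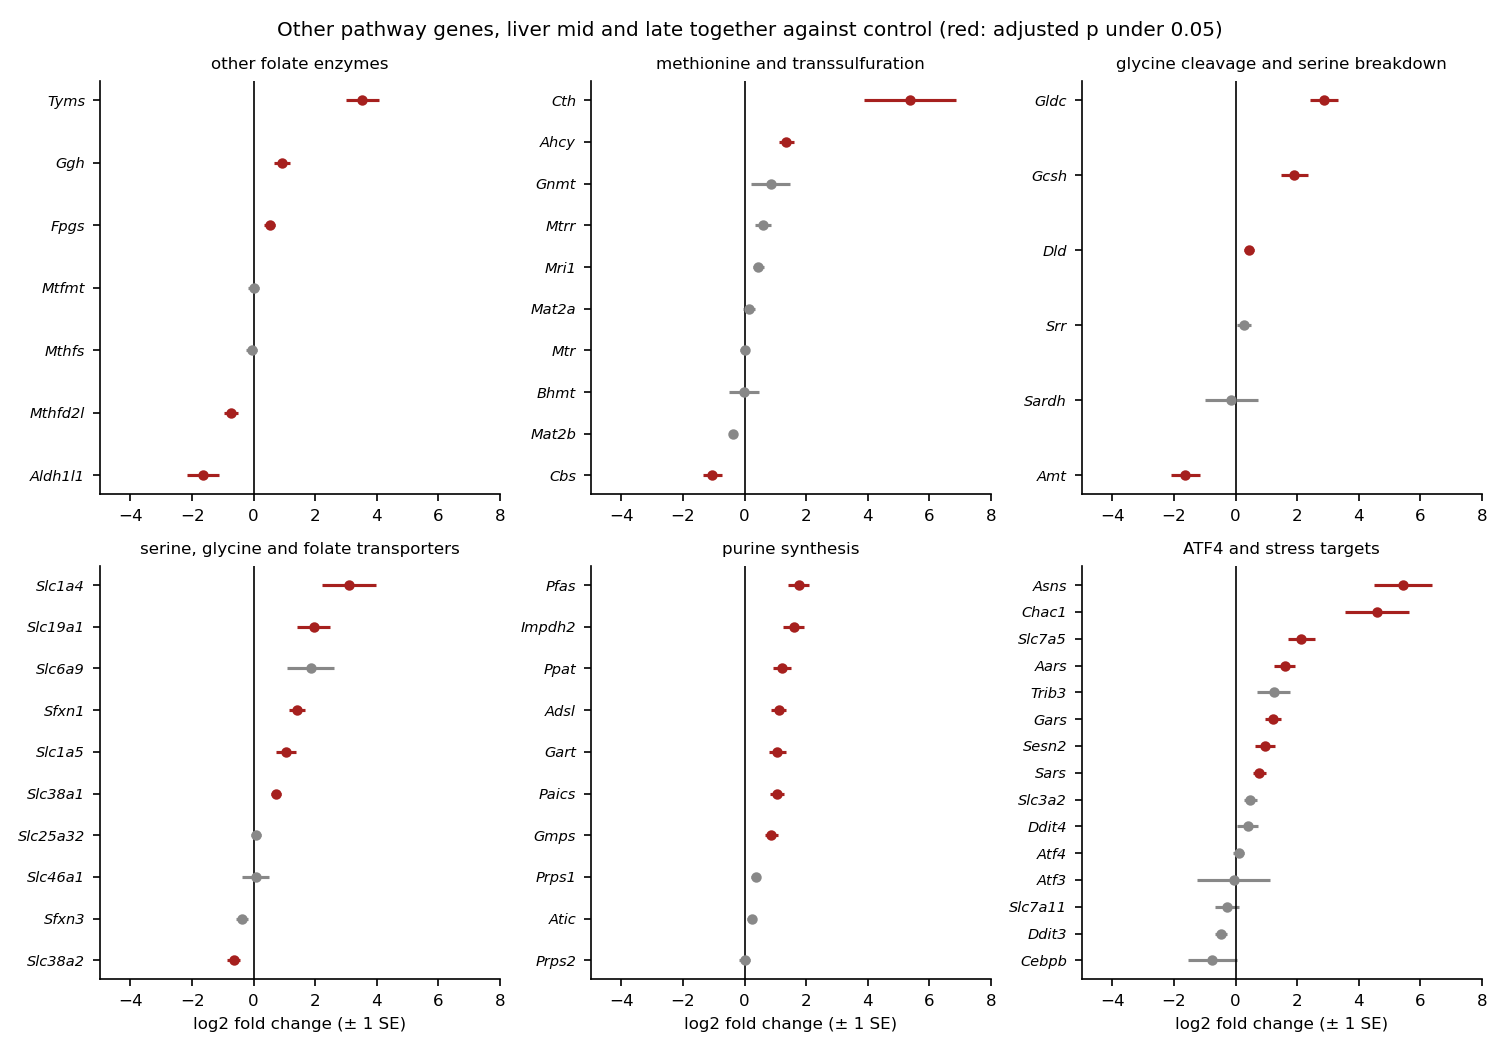
log2 fold changes (with bars of 1 SE) of 58 tested genes in 6 related lists, liver mid and late together against control; red points passed the edgeR test at adjusted p under 0.05. Purine synthesis genes lie at or right of 0, the other folate enzymes split between Tyms on the right and Mthfd2l and Aldh1l1 on the left, and Asns is farthest right.

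Signs of division and of other cells moved with some of these results. All 10 proliferation markers rose in mid and late liver libraries, with sums of 1410 to 3429 CPM against 283 to 354 CPM in controls, and their part in the rise of the 8 enzymes was not tested. Of 8 hepatocyte markers 2 could be tested, and both rose. Alb reached 132 CPM in liver late replicate 1 and 85.8 CPM in liver mid replicate 1 and was at 0.913 CPM in liver mid replicate 3, where Phgdh stood at 558 and Shmt2 at 418 CPM. The 4 tested erythroid markers and 3 of 6 myeloid markers fell, being high in the day 0 controls. The day 18 control had erythroid markers at 121 CPM and was the highest control for all 8 enzymes that rose in liver. Phgdh and Psph stood there at 177 and 44.3 CPM, beside 140 to 175 and 39.5 to 42.5 CPM in the day 0 controls. Mthfd1 was at 90.9 CPM beside 50.0 and 58.3 CPM. The part of these markers in the results was not tested.

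One further library of naive TG cells was prepared with oligo-dT priming and regular sequencing, to 23189213 estimated counts. In CPM without TMM scaling it held 92.8 of Phgdh against 181 in the low-input library of control replicate 1, and 64.5 of Mthfd1l against 38.3. Psat1 was alike in both at 25.3 and 24.1 CPM, as was Shmt2 at 120 and 144 CPM. Psph (24.6 against 43.7) and Shmt1 (6.47 against 12.0) were lower in the oligo-dT library, as Phgdh was. So were Mthfd1 (39.0 against 51.4), Mthfd2 (28.0 against 38.3) and Aldh1l2 (0.304 against 1.18). With 1 library of each kind these differences have no replicate check. Mthfd1l thus differed in the opposite direction to most of the enzymes, and the oligo-dT library entered no test.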

How the data were processed

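RNA was sequenced by the authors in low-input libraries and 1 oligo-dT library. Per the labels and methods, reads were quantified with kallisto (submitters' processing notes: bcl2fastq, builds mm10 and GRCm38; versions not given in the sources used here). The deposited tables give estimated counts and TPM per transcript. Here, 26 runs were summed to 15 libraries and transcripts to 35944 genes with GENCODE vM21 (98.3% of transcripts matched). Sums were rounded and tested with edgeR 4.0.16 (quasi-likelihood, robust, TMM; R 4.3.3), with group and title prefix as terms (the study names 2 batches, which the labels do not assign), on genes that reached 10 counts in 6 or more libraries. Liver and undivided comparisons used 11 libraries, spleen comparisons 14. Benjamini-Hochberg adjusted p under 0.05 over all tested genes was a call. The test was tried on simulated data. Alternatives included DESeq2 1.42.0, other filters, scalings and designs, and leaving out libraries. Members and lists were chosen with earlier results of these data known. Named genes were all members, up to 3 genes per list with the largest change among those called, fixed genes (Mthfd2l, Aldh1l1, Tyms, Atf4 and Asns, with 2 others not reported here), and the 3 genes most correlated with each member. CPM at low counts carries counting error.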

Additional observations from a re-analysis of the deposited data

How the results depend on the processing

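Of 9 enzymes, 8 were called at mid, late and both times together, and 0 elsewhere. Without the title prefix as a term, 4 were called at mid. Leaving out libraries gave between 0 and 8 at mid, between 0 and 8 at late and between 0 and 8 for both together. The count was 0 at mid without control replicate 1 or 2 or liver mid replicate 1 or 3, 0 at late without control replicate 1 or either late library (4 without control replicate 2), and 0 for both together without control replicate 1, the one TG control. In liver early against control DESeq2 called 2 (337 of 14616 genes), no count filter 7 (1483 of 29525 genes), and leaving out libraries between 0 and 8, with 8 without liver early replicate 2. DESeq2 called 2 in liver late against undivided. Leaving out libraries in liver early against spleen early, chosen after seeing the data, gave 0 to 4, with 4 without liver early replicate 2. The cause was not tested. In the 416 alternative values of the 8 enzymes at mid, late and both, 416 were above 0 and 343 had adjusted p under 0.05. The sign was largely set beforehand by the lack of overlap between these liver libraries and the controls. Aldh1l2 at both times reversed to -0.0079 with day 0 controls only, which is also the fit without control replicate 3 (0.563 without control replicate 1, 0.18 in all libraries). Counting Phgdh with its pseudogenes, chosen after seeing the data, left 8 called. No paired analysis was possible because the labels carry no replicate numbers. Low counts limit Aldh1l2.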
